A study of Saccharomyces cerevisiae with 16 samples.

Results

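Budding yeast takes up sulfate, reduces it to sulfide and builds it into homocysteine, from which methionine, S-adenosylmethionine, cysteine and glutathione are made. The 31 genes described here are those of this pathway, listed by their systematic names, with earlier results of these data known: sulfate permeases, the enzymes of sulfate reduction, of homocysteine and methionine synthesis, of transsulfuration, of glutathione and of S-adenosylmethionine, the permeases of methionine and related compounds, and the regulators of the pathway. All 31 were among the 6844 genes measured, and all 31 passed a filter that left 6404 genes for testing (a mean of at least 1 TPM, a unit in which the reads of a transcript are divided by its length and every library sums to 1000000). RNA was sequenced from 16 libraries, 4 biological replicates each of *atg18∆*, *fab1∆*, *vph1∆* and wild-type cells. The gene deleted in *fab1∆* encodes the lipid kinase that makes phosphatidylinositol 3,5-bisphosphate on the vacuole, Atg18 binds that lipid and restrains the kinase, and Vph1 is the vacuolar subunit of the proton pump (v-ATPase) that acidifies the vacuole. By the genotype labels, each deletion replaced the gene with the NatMX marker. All 4 strains, wild type included, came from the parental line DHY211 and carried the alleles SAL1+ and HAP1+ together with CAT5(91M) and MIP1(661T), and also MKT1(30G), RME1(INS-308A) and TAO3(1493Q). Cells were grown at room temperature in SDC, a synthetic medium with 2% dextrose and amino acids, to an OD600 of 0.05, in duplicate cultures on each of 2 days, and the labels do not say which replicate numbers share a day.

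In this pathway Sul1 and Sul2 import sulfate, Met3 and Met14 activate it, and Met16 and the sulfite reductase of Met5 and Met10 reduce it to sulfide with the help of the siroheme made by Met1 and Met8. Met17 joins sulfide to the O-acetylhomoserine made by Met2, and Met6 methylates the resulting homocysteine to methionine. Transcription of these genes is driven by the activator Met4, which has no DNA-binding activity of its own and is held on promoters by Cbf1, Met28, Met31 and Met32. The ubiquitin ligase subunit Met30 restrains Met4 when cells have enough methionine, S-adenosylmethionine or cysteine, so that the genes are known for low activity in rich amino acid media and for a joint rise on sulfur starvation.

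Many of the members carry the binding cores of these factors upstream, and the sequences of 11 members are shown for that reason, 2 without either core (*SAM3* and *CYS4*) among them. These 11 were picked from the comparisons below with their values known, and other members called there are left out. Among those left out are *SUL2*, which has a core, and *MET2*, which has neither. A link between the motifs and the differences was not tested. The windows were the 300 bases before each start codon in the R64 genome (SacCer3), searched on both strands. CACGTG, the E-box bound by Cbf1, was in 11 of 31 members (35.5%), against 3.56% of 6019 promoters. The core TGTGGC of Met31 and Met32, read on the other strand as GCCACA, was in 18 of 31 members (58.1%), against 8.07% of promoters. TGACTC, the core of the general amino acid regulator Gcn4, was in 7 members (22.6%), against 7.74% of promoters. Both the E-box and the Met31/32 core were in *MET14*, *MET16*, *MET10*, *MET22*, *CYS3*, *MET28* and *MET30*, that is 7 of 31 members (22.6%), against 0.432% of promoters, and no matches of different motifs overlapped. Such a match is a description of letters and not a binding site. The sequences run 5′ to 3′ on the strand of the gene, from 300 to 101 bases before the start codon, and capitals mark the E-box and the Met31/32 core in either orientation.
*MET28* (YIR017C), chrIX:384220-384419 (minus strand): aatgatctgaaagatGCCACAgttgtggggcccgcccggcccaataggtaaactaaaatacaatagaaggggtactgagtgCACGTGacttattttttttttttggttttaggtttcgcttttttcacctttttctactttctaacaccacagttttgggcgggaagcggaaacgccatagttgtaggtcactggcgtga
*STR3* (YGL184C), chrVII:156113-156312 (minus strand): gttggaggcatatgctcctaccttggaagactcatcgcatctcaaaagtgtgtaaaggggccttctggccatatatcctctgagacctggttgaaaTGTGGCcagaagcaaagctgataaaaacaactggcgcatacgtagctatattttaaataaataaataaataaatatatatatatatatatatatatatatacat
*MET3* (YJR010W), chrX:455939-456138 (plus strand): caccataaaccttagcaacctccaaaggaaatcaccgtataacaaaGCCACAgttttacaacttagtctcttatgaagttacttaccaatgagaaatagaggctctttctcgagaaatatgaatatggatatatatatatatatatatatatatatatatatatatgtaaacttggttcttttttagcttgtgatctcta
*MET14* (YKL001C), chrXI:439486-439685 (minus strand): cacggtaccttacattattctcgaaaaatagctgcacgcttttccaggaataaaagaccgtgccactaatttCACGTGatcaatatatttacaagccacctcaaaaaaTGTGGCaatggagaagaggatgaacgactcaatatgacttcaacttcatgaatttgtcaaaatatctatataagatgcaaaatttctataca
*MET16* (YPR167C), chrXVI:877733-877932 (minus strand): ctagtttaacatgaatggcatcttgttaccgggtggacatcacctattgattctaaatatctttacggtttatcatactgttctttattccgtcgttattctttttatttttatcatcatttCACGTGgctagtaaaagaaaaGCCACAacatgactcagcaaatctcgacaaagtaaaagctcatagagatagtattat
*MUP1* (YGR055W), chrVII:599117-599316 (plus strand): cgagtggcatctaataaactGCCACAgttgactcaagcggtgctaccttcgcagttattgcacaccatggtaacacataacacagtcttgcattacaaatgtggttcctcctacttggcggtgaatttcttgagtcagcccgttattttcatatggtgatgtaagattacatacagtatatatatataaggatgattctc
*MMP1* (YLL061W), chrXII:17656-17855 (plus strand): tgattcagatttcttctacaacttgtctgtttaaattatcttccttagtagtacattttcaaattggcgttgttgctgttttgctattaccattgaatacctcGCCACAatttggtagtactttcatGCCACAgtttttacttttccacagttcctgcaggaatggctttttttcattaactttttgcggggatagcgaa
*GSH1* (YJL101C), chrX:236457-236656 (minus strand): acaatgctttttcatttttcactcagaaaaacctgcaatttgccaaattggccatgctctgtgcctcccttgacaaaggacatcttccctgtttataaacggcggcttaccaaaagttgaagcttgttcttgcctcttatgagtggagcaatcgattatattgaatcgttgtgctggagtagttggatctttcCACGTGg
*SAM3* (YPL274W), chrXVI:22638-22837 (plus strand): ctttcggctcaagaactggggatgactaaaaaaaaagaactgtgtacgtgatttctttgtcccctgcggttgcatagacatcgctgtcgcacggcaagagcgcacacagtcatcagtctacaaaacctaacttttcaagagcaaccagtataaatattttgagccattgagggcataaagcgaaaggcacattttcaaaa
*MET17* (YLR303W), chrXII:732242-732441 (plus strand): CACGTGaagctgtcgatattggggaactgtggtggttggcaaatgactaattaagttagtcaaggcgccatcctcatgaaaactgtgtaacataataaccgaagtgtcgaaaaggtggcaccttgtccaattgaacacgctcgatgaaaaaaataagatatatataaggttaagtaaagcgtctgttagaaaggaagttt
*CYS4* (YGR155W), chrVII:798243-798442 (plus strand): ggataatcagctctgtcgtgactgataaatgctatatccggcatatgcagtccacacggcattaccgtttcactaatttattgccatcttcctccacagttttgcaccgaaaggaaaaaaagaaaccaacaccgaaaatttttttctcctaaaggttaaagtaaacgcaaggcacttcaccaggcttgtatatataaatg

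In *MET28* the core and the E-box end 280 and 214 bases before the start codon, and in *MET16* the E-box and the core end 173 and 152 bases before it. *GSH1* and *MET17* held an E-box and no Met31/32 core. *STR3* held a further core 80 bases before the start, outside the stretch printed. *MMP1* and *MHT1* lie head to head on chromosome XII, 342 bases apart, so both windows hold the same pair of cores. Neither motif was found within 300 bases of *SUL1*, *MET2*, *MET6*, *CYS4*, *SAM1*, *SAM3*, *SAM4*, *MET31* and *MET32*, which says only that these letters were not in that window. Cores of Met31 and Met32 were found in genes of every role, as the map of motif positions shows. No gene of sulfate uptake, methionine uptake or S-adenosylmethionine had an E-box within 300 bases. That contrast depends on the window, since *SUL2* and *SAM2* had an E-box within 500 bases.

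**Figure D1:**
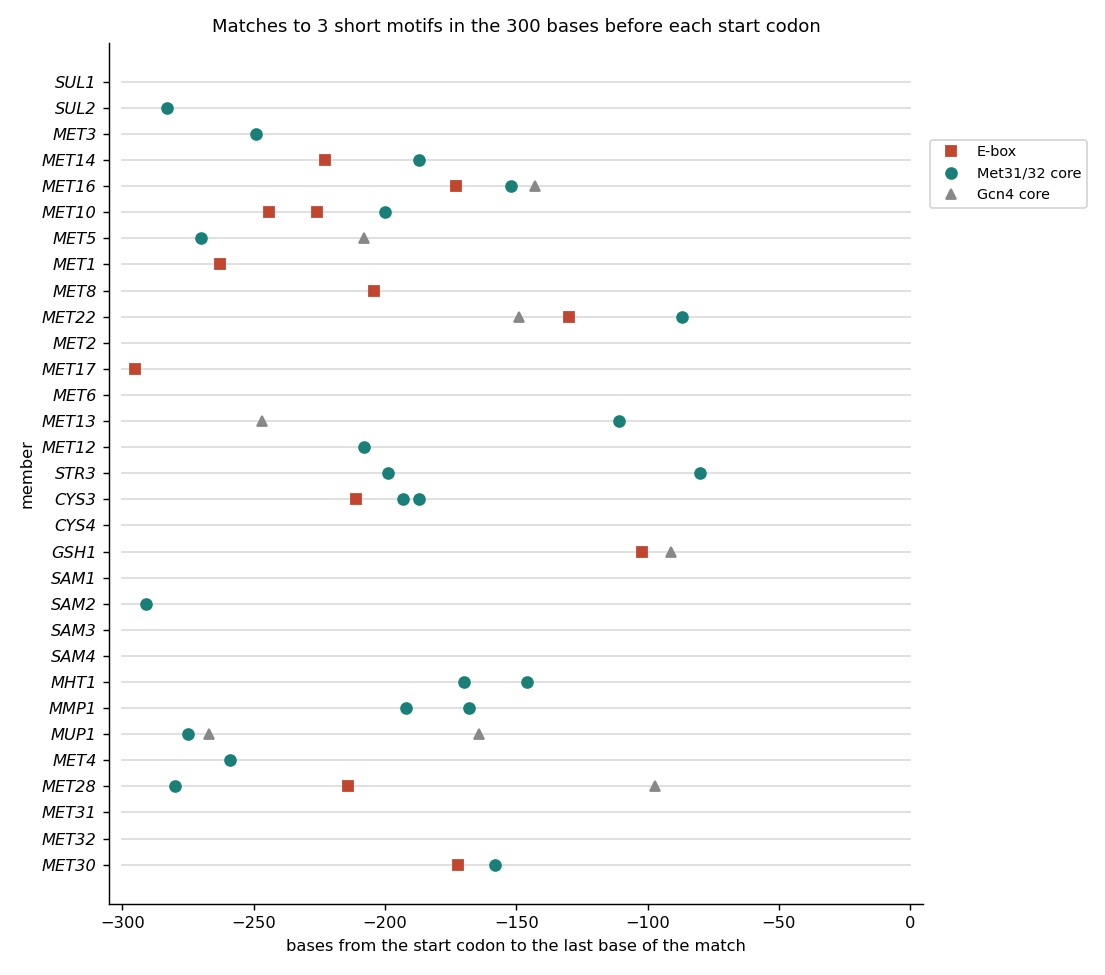
Positions of the E-box, the Met31/32 core and the Gcn4 core in the 300 bases before the start codon of the 31 members, one line per gene, with the distance to the start codon in bases on the horizontal axis. Cores of Met31 and Met32 were found in 18 members and E-boxes in 11, and 9 members had neither.

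The labels were checked against the deleted genes. *ATG18* was at 0 to 0.0106 TPM in *atg18∆* and 3.27 to 12.8 TPM elsewhere, and *VPH1* at 0 to 0.191 TPM in *vph1∆* and 42.3 to 118 TPM elsewhere. *FAB1* was not at 0 in its deletion strain, with 1.28 to 1.58 TPM in *fab1∆* against 1.77 to 3.55 TPM elsewhere. Its level was lower there, but the check is not as clear as for the other deleted genes, and whether part of the gene remains is not given. Genes specific to mating type **a** summed to 12886 to 25187 TPM and those specific to type alpha to 8.4 to 23.4 TPM in the 16 libraries. Wild-type replicate 3 stood apart: 31.2% of its TPM fell on its 10 highest genes, where the other 15 libraries had 14.4 to 15.9%, and the 31 members summed to 929 TPM in it, against 2034 to 2526 TPM in the others. It was the lowest wild-type library for 31 of 31 members, at a median of 40.1% of the mean of the other 3, with all genes at a median of 49.5%. The methods eliminated 1 wild-type sample for RNA quality without naming it. The counts of members called are therefore given with all 16 libraries and without wild-type replicate 3 in every comparison below. Some values of single genes are given under only 1 of these settings. The part of that library's quality in the results was not tested. With it, genes as a whole lay above wild type by a median log2 difference of 0.27 for *atg18∆*, 0.25 for *fab1∆* and 0.27 for *vph1∆*, and without it by 0.046, 0.066 and 0.063. TPM values carry no read numbers, so the depth behind each value is unknown. The p-values set a difference between strains against the spread between replicate libraries alone, which the main fit shares between all 4 strains.

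The members spanned a wide range of levels. Over the 15 libraries without wild-type replicate 3 the enzymes that make S-adenosylmethionine were the most abundant, with means of 482 TPM for *SAM1* (YLR180W) and 404 TPM for *SAM2* (YDR502C), paralogs with 83% identical coding bases between which reads may be shared. Next were *CYS3* (YAL012W, 347 TPM) and *CYS4* (YGR155W, 259 TPM), the lyase and the synthase of the route from homocysteine to cysteine. The homocysteine methyltransferase *SAM4* (YPL273W) had 153 TPM, the methionine synthase *MET6* (YER091C) 113 TPM and the methionine permease *MUP1* (YGR055W) 99.1 TPM. The 8 genes of sulfate reduction ranged in mean from 5.01 TPM for *MET1* (YKR069W), of siroheme synthesis, to 42.7 TPM for *MET22* (YOL064C), the nucleotidase that clears the by-product of the reductase step. Both sulfite reductase genes were low, at 7.37 TPM for *MET10* (alpha subunit) and 7.33 TPM for *MET5* (YJR137C, beta subunit), and the methylenetetrahydrofolate reductase genes *MET13* (YGL125W) and *MET12*, whose products supply the methyl group for Met6, had 17.6 and 21.2 TPM. The lowest were the sulfate permeases *SUL2* (YLR092W, 3.05 TPM) and *SUL1* (YBR294W, 2.99 TPM) and the cystathionine beta-lyase *STR3* (YGL184C, 2.02 TPM). In all 15 libraries *SAM1*, *SAM2*, *CYS3* and *CYS4* were each above every gene of sulfate uptake and reduction, as levels per length.

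The spread between replicates was small in most members. The coefficient of variation over 4 libraries had a median over the members of 7.75% in *atg18∆* (highest 33.6%, *STR3*), 5.0% in *fab1∆* (highest 10.1%, *MET16*) and 9.83% in *vph1∆* (highest 26.3%, *MET6*). In wild type it was 36.2% with 4 libraries and 6.06% without replicate 3. *MET28* was the member least moved by that library, at 96.3% of the mean of the other wild-type libraries, followed by *MET14* at 83.3%, *STR3* at 78.8% and *MET31* at 77.8%, whereas *CYS3* stood at 27.2%.

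**Figure D2:**
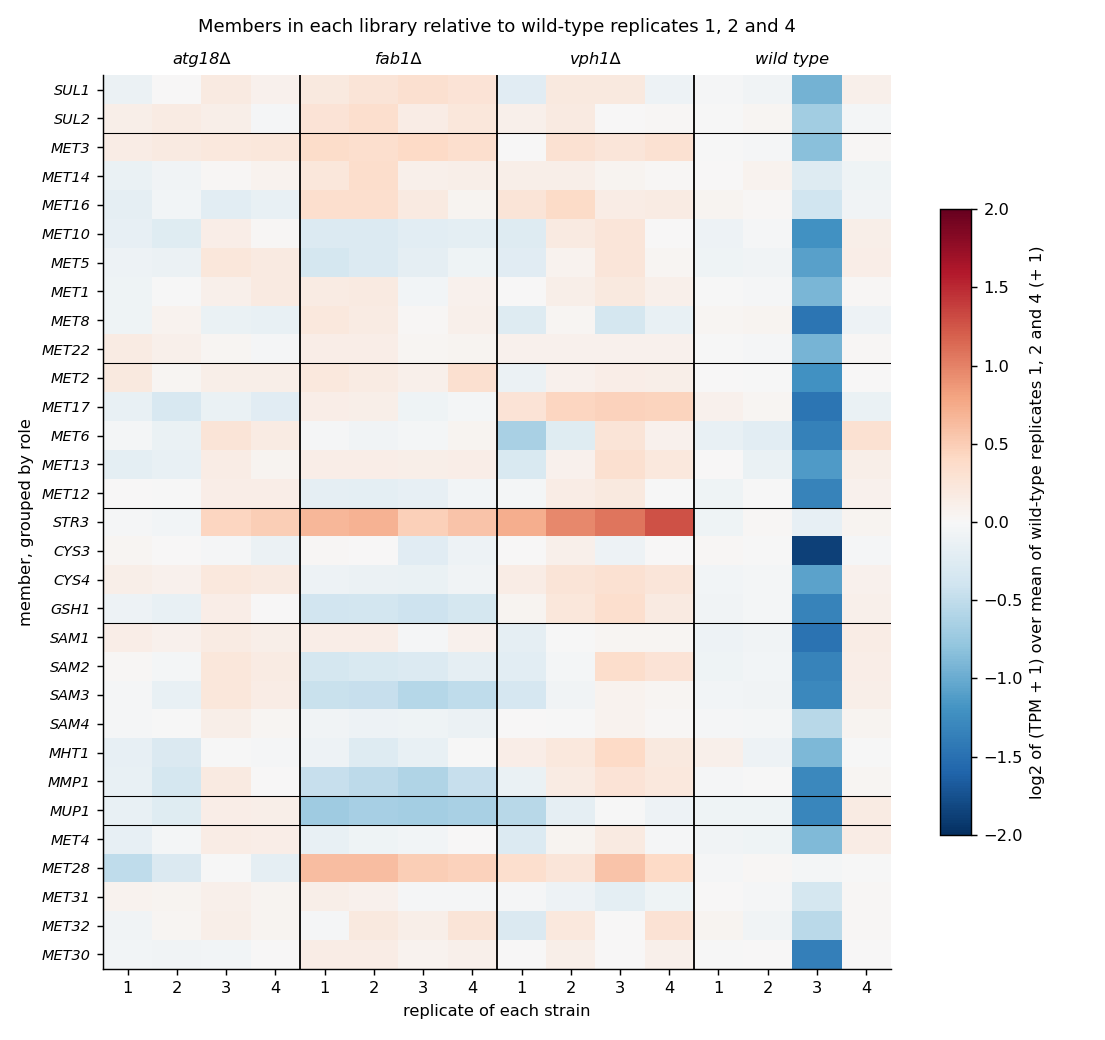
Log2 of TPM + 1 of each member in each of the 16 libraries, minus the mean of wild-type replicates 1, 2 and 4, with mutant libraries left of wild type and genes grouped by role. Wild-type replicate 3 is low at nearly every gene other than *MET28*, *MET28* and *STR3* are high in *fab1∆* and *vph1∆*, and *MUP1*, *SAM3*, *MMP1* and *GSH1* are low in *fab1∆*.

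In *fab1∆* against wild type, the cystathionine beta-lyase gene *STR3*, the Met4 cofactor gene *MET28*, the ATP sulfurylase gene *MET3* and the sulfate permease gene *SUL2* were higher, and none of the 31 members was lower by the test with all 16 libraries. Without wild-type replicate 3, 7 members were higher, which added the sulfate reduction genes *MET14* and *MET16* and the homoserine acetyltransferase gene *MET2*, and 4 were lower, the permease genes *MUP1*, *SAM3* and *MMP1* and the glutathione synthesis gene *GSH1*. As higher, 12.9% of members were called with 16 libraries against 22.9% of all genes, and 22.6% against 32.4% without replicate 3. Both shares of members were below those of all genes. As lower, 0 members were called with 16 libraries against 0.609% of genes, and 12.9% against 10.0% without replicate 3. *STR3* had 2.28, 2.36, 1.89 and 2.09 TPM in the 4 *fab1∆* libraries and 0.946, 1.12, 0.845 and 1.15 TPM in the wild-type libraries. Every *fab1∆* library was above every wild-type library, and the *fab1∆* mean was 2.01 times that of wild type without replicate 3. On the log2(TPM + 1) scale, which understates changes of such low genes, the difference was 0.65 ± 0.14 (SE), adjusted p = 0.00335 (limma, Benjamini-Hochberg over all genes tested), and 0.60 without wild-type replicate 3 (adjusted p = 0.00366).

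*MET28*, a leucine zipper protein that helps to hold Met4 on DNA, had 5.48, 5.42, 4.89 and 4.75 TPM in *fab1∆* and 3.12, 3.29, 3.08 and 3.20 TPM in wild type. In unscaled TPM the wild-type libraries, replicate 3 among them, lay close together and all below *fab1∆*. Genes as a whole, however, were at a median of 49.5% in replicate 3. After median scaling of the 16 libraries *MET28* overlapped wild type and was not called. Without scaling, the log2 difference of *MET28* was 0.55 ± 0.12 (SE), adjusted p = 0.00263 (limma), and 0.54 without replicate 3 (adjusted p = 0.000783). *MET3* had 7.75, 7.64, 8.01 and 7.62 TPM in *fab1∆* and 5.76, 5.70, 2.80 and 5.96 TPM in wild type, again without overlap. Its difference was 0.57 ± 0.16 (SE), adjusted p = 0.016 (limma), and 0.36 (adjusted p = 0.000645) without replicate 3, the lowest wild-type value. *SUL2* had 3.52, 3.73, 3.16 and 3.39 TPM in *fab1∆* and 2.73, 2.85, 1.31 and 2.64 TPM in wild type, where the 3 higher wild-type libraries lay below the lowest *fab1∆* library. It differed by 0.42 ± 0.14 (SE), adjusted p = 0.0371 (limma), or 0.25 without replicate 3 (adjusted p = 0.0129), and it was no longer called when any 1 of the *fab1∆* libraries or *vph1∆* replicate 4 was left out.

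Of the 3 members that were called as higher without wild-type replicate 3 alone, *MET14*, the adenylylsulfate kinase gene, had 25.1, 27.7, 23.1 and 23.4 TPM in *fab1∆* and 21.6, 22.5, 17.8 and 20.2 TPM in wild type. *MET16*, the phosphoadenylylsulfate reductase gene, had 11.5, 11.5, 10.3 and 9.26 TPM in *fab1∆* and 9.26, 9.04, 6.55 and 8.45 TPM in wild type. In both genes each *fab1∆* library was above the highest wild-type library, by small margins. With 16 libraries they differed by 0.26 ± 0.11 (SE), adjusted p = 0.0858 and 0.32 ± 0.12 (SE), adjusted p = 0.0657, and without replicate 3 by 0.20 (adjusted p = 0.0266) and 0.23 (adjusted p = 0.032, all limma). *MET2* (YNL277W) had 8.72, 8.47, 8.03 and 9.49 TPM in *fab1∆* and 7.48, 7.36, 2.64 and 7.45 TPM in wild type, a difference of 0.50 ± 0.21 (SE), adjusted p = 0.0946 with 16 libraries and 0.20 without replicate 3 (adjusted p = 0.0384, limma). These 3 calls rest on how wild-type replicate 3 and the libraries' scale are treated: after scaling of the libraries to a common median without replicate 3, *MET14*, *MET16*, *MET2* and *SUL2* were no longer called.

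In the unscaled fit without wild-type replicate 3, the 4 lower members were the permease genes *MUP1*, *SAM3* and *MMP1* and the glutathione synthesis gene *GSH1*. The sulfate permease gene *SUL2* was among the higher members, and other fits, given below, called more members as lower. The wild-type values of these 4 genes split into replicate 3 and the rest. *MUP1*, the high-affinity methionine permease gene, had 69.6, 72.6, 71.4 and 73.5 TPM in *fab1∆* and 108, 109, 46.1 and 128 TPM in wild type. The *fab1∆* libraries lay within 4 TPM of each other, below 3 wild-type libraries and above wild-type replicate 3. With 16 libraries the log2 difference was -0.35 ± 0.23 (SE), adjusted p = 0.299, and without replicate 3 it was -0.67 ± 0.12 (SE), adjusted p = 0.000336 (limma). *SAM3* (YPL274W), the S-adenosylmethionine permease gene, had 46.6, 46.1, 42.5 and 44.8 TPM in *fab1∆* and 61.7, 60.5, 25.4 and 69.6 TPM in wild type, with a difference of -0.17 ± 0.23 (SE), adjusted p = 0.619 that became -0.50 ± 0.10 (SE), adjusted p = 0.000843 without replicate 3 (limma). *MMP1* (YLL061W), the S-methylmethionine permease gene and a paralog of *SAM3* with 68.4% identical coding bases, had 6.25, 5.93, 5.58 and 6.23 TPM in *fab1∆* and 8.83, 8.89, 3.10 and 9.23 TPM in wild type. Its difference was -0.19 (adjusted p = 0.584) with 16 libraries and -0.51 (adjusted p = 0.002, limma) without replicate 3. *GSH1* (YJL101C), for gamma-glutamylcysteine synthetase, had 15.0, 15.3, 14.7 and 15.5 TPM in *fab1∆* and 18.9, 19.3, 7.29 and 21.5 TPM in wild type, and differed by -0.04 (adjusted p = 0.922) with 16 libraries and -0.37 (adjusted p = 0.00104, limma) without replicate 3. In each of these genes the 4 *fab1∆* libraries were below wild-type replicates 1, 2 and 4 and above replicate 3.

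**Figure D3:**
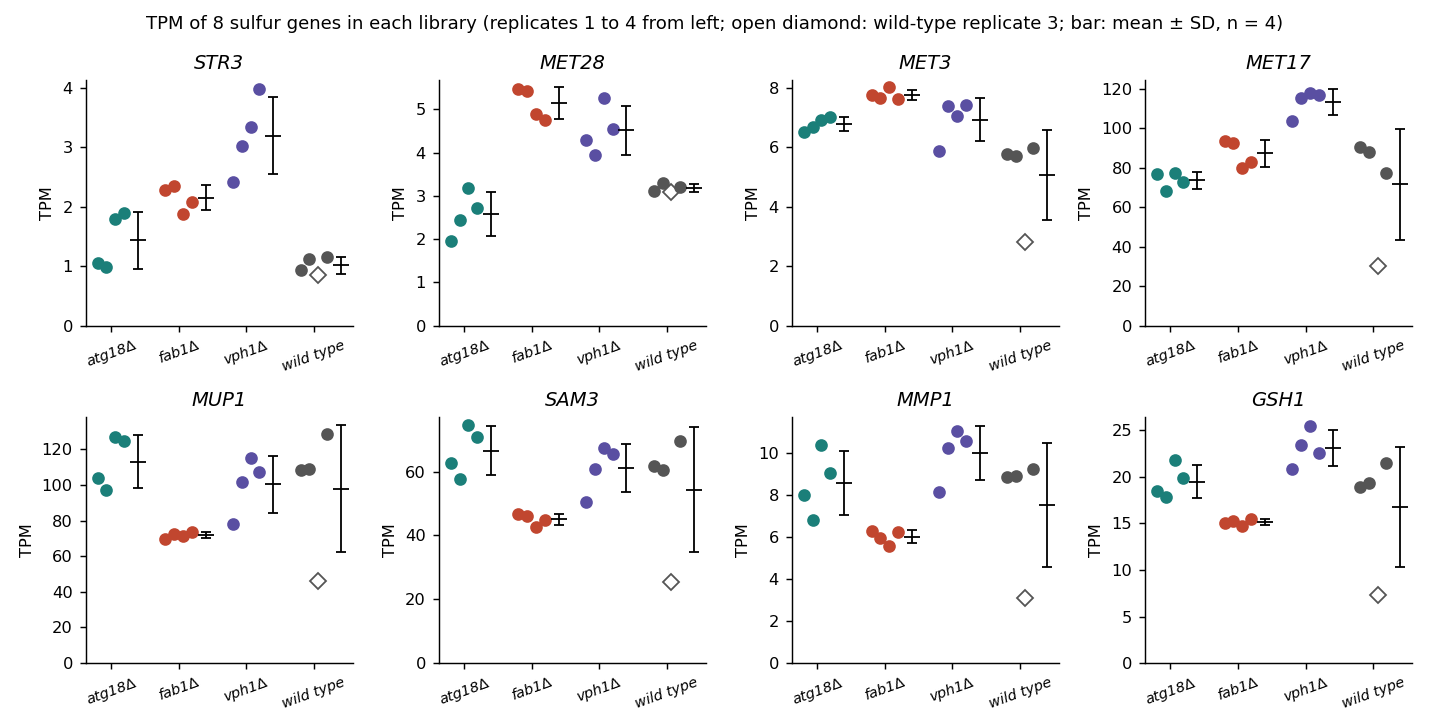
TPM of *STR3*, *MET28*, *MET3*, *MET17*, *MUP1*, *SAM3*, *MMP1* and *GSH1* in every library, with 1 point per library from replicate 1 to 4, the mean ± SD (n = 4) beside each strain and wild-type replicate 3 as an open diamond. The 4 *fab1∆* libraries of *MUP1*, *SAM3*, *MMP1* and *GSH1* lie between wild-type replicate 3 and the other wild-type libraries, and *STR3* and *MET28* in *fab1∆* and *vph1∆* lie above all 4 wild-type libraries.

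The counts in *fab1∆* are read against those of all genes. With 16 libraries 4 of 31 members were higher, against 22.9% of all genes tested, and 0 lower, against 0.609%. Without wild-type replicate 3, 7 members were higher against 32.4% of genes, and 4 lower against 10.0%. Same-numbered libraries of these 2 strains all correlated above the limit of 0.1 set for pairing. For replicates 2 and 3, however, a library of another number gave the highest correlation, so the numbers are not shown to be pairs. With the replicate number as a block the 16 libraries gave the same 4 calls. Without wild-type replicate 3 the block gave 9 higher (34.8% of genes) and 10 lower (19.9%). The block then added *MET8* and *MET30* to the higher members and *SAM2*, *MET10*, *CYS4*, *MET5*, *MET12* and *SAM4* to the lower ones. After median scaling of the 16 libraries 1 member, *MET3*, was higher (14.9% of genes) and 10 were lower (23.3%), with *STR3* and *MET28* not called at log2 differences of 0.32 and 0.22, and with both changes 3 were higher (21.3%) and 12 lower (29.9%). The 7 members called under both scalings without replicate 3 were *MET28*, *STR3*, *MET3*, *MUP1*, *SAM3*, *MMP1* and *GSH1*. Over the alternatives tried, the adjusted p of limma ranged from 0.00235 to 0.132 for *STR3*, 0.000783 to 0.281 for *MET28*, 0.000645 to 0.135 for *MET3* and 7.69e-06 to 0.518 for *MUP1*. *STR3* was called in 25 of 27 alternatives, *MET28* in 25, *MET3* in 26, *SUL2* in 18 and *MUP1* in 5 of 28. Of these alternatives 16 left out 1 library each, some of them of *atg18∆* or *vph1∆*, so the numbers are not independent votes. *STR3* and *MET28* were also not called after quantile normalization of the 16 libraries. The calls of *MUP1* came from rescaled libraries or from fits without wild-type replicate 3. By overlap alone, 10 members had every *fab1∆* library above every wild-type library (32.6% of genes) and 0 below (1.17%), and without replicate 3 these counts were 10 (35.8%) and 9 (14.3%). Median scaling of the 16 libraries turned the split by overlap round, with 2 members above wild type, *SUL1* and *MET3* (14.4% of genes), and 8 below (20.8%), *MET5*, *GSH1*, *SAM3*, *SAM4*, *MHT1*, *MMP1*, *MUP1* and *MET4*. The median log2 difference of the members was 0.32, against 0.25 over all genes, or 0.034 against 0.066 without replicate 3, and the 27 members not called with 16 libraries ranged from -0.35 to 0.50. In bulk RNA, fewer cells that express a gene and less RNA per cell cannot be told apart.

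In *vph1∆* against wild type, *STR3* was the member called with all 16 libraries, and its difference was the largest of the 31. *STR3* had 2.42, 3.03, 3.35 and 3.98 TPM in *vph1∆* and 0.946, 1.12, 0.845 and 1.15 TPM in wild type. Each *vph1∆* library was above the highest wild-type library, and the *vph1∆* mean was 2.98 times that of wild type without replicate 3. The log2 difference was 1.05 ± 0.14 (SE), adjusted p = 0.000438 (limma), and 1.01 without replicate 3 (adjusted p = 0.000305), and it stayed past the threshold in 27 of 27 alternatives.

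Without wild-type replicate 3, *MET17*, *CYS4* and *MET28* were also higher in *vph1∆*, and none of the members was lower. *MET17* (YLR303W), the sulfhydrylase gene at which sulfide enters homocysteine, had 103, 115, 118 and 117 TPM in *vph1∆* and 90.5, 87.8, 30.4 and 77.4 TPM in wild type. Every *vph1∆* library was above every wild-type library. The difference was 0.77 ± 0.24 (SE), adjusted p = 0.0771 with 16 libraries and 0.41 ± 0.07 (SE), adjusted p = 0.00131 without replicate 3 (limma), and since *MET17* overlaps YLR302C on the opposite strand, part of its reads depends on how strand was used. *CYS4* had 269, 291, 303 and 289 TPM in *vph1∆* and 235, 237, 116 and 260.5 TPM in wild type, with a difference of 0.51 ± 0.18 (SE), adjusted p = 0.122 that became 0.24 ± 0.05 (SE), adjusted p = 0.00283 without replicate 3 (limma). *MET28* had 4.29, 3.95, 5.27 and 4.54 TPM in *vph1∆*, again above all 4 wild-type libraries, and differed by 0.40 ± 0.12 (SE), adjusted p = 0.0667 with 16 libraries and 0.39 ± 0.11 (SE), adjusted p = 0.0237 without replicate 3 (limma).

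Of the 31 members, 1 was higher in *vph1∆* with 16 libraries (4.42% of genes) and 0 lower (0.453%), and without wild-type replicate 3 these were 4 (11.6%) and 0 (3.12%). Median scaling without replicate 3 gave 3 higher (5.57%), *MET17*, *STR3* and *CYS4*, and 1 lower (7.43%), *MUP1*. Without overlap with wild type 8 members were above it in *vph1∆* (15.1% of genes) and 0 below (0.859%), and without replicate 3 they were 8 (16.7%) and 1 (5.04%). In both counts the 8 were *MET16*, *MET22*, *MET17*, *STR3*, *CYS4*, *MHT1*, *MET28* and *MET30*, and the 1 below without replicate 3 was *MET31*. After median scaling of the 16 libraries 4 were above, *MET17*, *STR3*, *CYS4* and *GSH1* (5.51%), and 0 below (7.40%). The members' median was 0.35 against 0.27 over all genes, or 0.075 against 0.063 without replicate 3, and the 30 members not called with 16 libraries ranged from -0.013 to 0.77. *MUP1* itself had 77.9, 102, 115 and 107 TPM in *vph1∆*, of which replicate 3 lay among wild-type replicates 1, 2 and 4 and the others lay below them.

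In *atg18∆* against wild type no member passed the test. With limma, 0 members were called as higher (0.0312% of genes) and 0 as lower (0.0156%) with 16 libraries, and without wild-type replicate 3 the counts were 0 (0.0780%) and 0 (0.0156%). At an unadjusted p below 0.05 there were 2 members and 405 genes with 16 libraries, and 4 members and 381 genes without replicate 3. The 3 members with the smallest p were *MET3*, *CYS4* and *SAM1*. *MET3* had 6.51, 6.68, 6.91 and 7.01 TPM in *atg18∆*, every library above the 4 wild-type libraries, with a difference of 0.40 ± 0.16 (SE), adjusted p = 0.294 (limma). *CYS4*, with 265, 260.4, 283 and 276 TPM in *atg18∆*, differed by 0.42 ± 0.18 (SE), adjusted p = 0.294, and *SAM1*, with 512, 494, 521 and 505 TPM in *atg18∆* and 433, 446, 166 and 519 TPM in wild type, by 0.50 ± 0.24 (SE), adjusted p = 0.294 (limma). Without replicate 3 these differences were 0.19, 0.15 and 0.13. Without overlap, 3 members were above wild type, *MET3*, *MET2* and *MET31* (4.89% of genes), and 0 below (0.422%), and without replicate 3 these counts were 3 (5.11%) and 1, *MET17* (1.34%). After median scaling of the 16 libraries 2 were above, *MET3* and *CYS4* (1.26%), and 2 below, *MHT1* and *MET28* (2.86%). *MET17* had 76.8, 68.1, 77.3 and 72.6 TPM in *atg18∆*, and its difference was 0.16 ± 0.24 with 16 libraries and -0.21 ± 0.07 without replicate 3 (SE). *MET28*, named like *MET17* after its values were seen, had 1.96, 2.45, 3.18 and 2.71 TPM in *atg18∆*, of which 3 libraries were below all 4 wild-type libraries, and a difference of -0.23 ± 0.12 (SE), adjusted p = 0.294 with 16 libraries (limma). The members' median was 0.28 against 0.27 over all genes, or 0.036 against 0.046 without replicate 3. A p that misses the threshold does not show that *atg18∆* and wild type were alike, and the 31 log2 differences ranged from -0.24 to 0.21 without replicate 3.

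**Figure D4:**
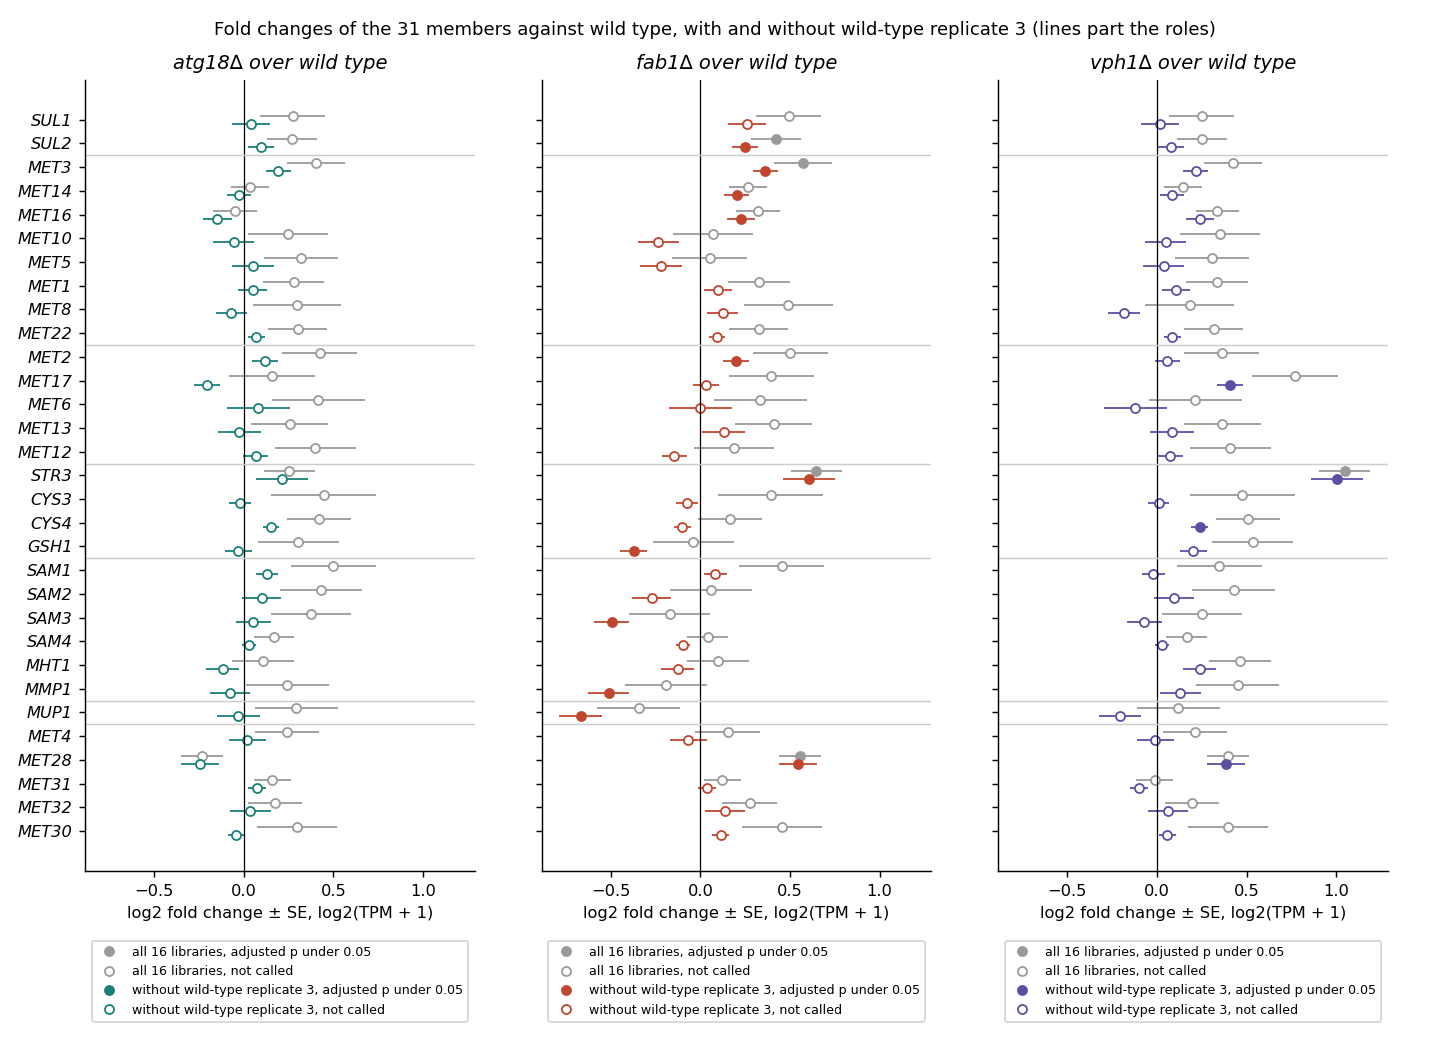
Log2 difference on the TPM + 1 scale with its standard error for the 31 members in each mutant minus wild type, with all 16 libraries and without wild-type replicate 3, with genes down the page and filled points for those called. With 16 libraries 4 members were called as higher in *fab1∆* (22.9% of all genes), 1 in *vph1∆* (4.42%) and 0 in *atg18∆* (0.0312%). As lower, 0 were called in each (0.609%, 0.453% and 0.0156% of genes). Without replicate 3 the 4 lowest members in *fab1∆* were *MUP1*, *MMP1*, *SAM3* and *GSH1*.

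The mutants were then set against each other, which uses no wild-type value, although wild-type replicate 3 still enters the spread that the model shares between strains. In *vph1∆* against *fab1∆*, 0 members were called with 16 libraries, either as higher (0.531% of genes) or as lower (5.76%), with 3 members and 1134 genes at an unadjusted p below 0.05 by limma. Without wild-type replicate 3, 12 were higher (15.3%) and 2 lower (25.8%), after median scaling of the 16 libraries 11 were higher (18.4%) and 1 lower (13.5%), and with both 13 were higher (26.6%) and 2 lower (22.4%). Without scaling, the size of the differences was the same with and without that library. Of the 14 calls made without it, 13 remained when median scaling was added to that fit. With median scaling of the 16 libraries *STR3*, *SAM4*, *MET8* and *MET31* were not called. Among the 12 called as higher without that library were all 4 members called as lower in *fab1∆* than in wild type, a comparison that shares the *fab1∆* libraries. *GSH1* had 20.8, 23.4, 25.5 and 22.6 TPM in *vph1∆* and 15.0, 15.3, 14.7 and 15.5 TPM in *fab1∆*, every *vph1∆* library above every *fab1∆* library. Its difference was 0.57 ± 0.07 (SE), adjusted p = 1.83e-05 without wild-type replicate 3 (limma), against an adjusted p of 0.171 with 16 libraries.

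*MMP1* had 8.11, 10.2, 11 and 10.6 TPM in *vph1∆* and 6.25, 5.93, 5.58 and 6.23 TPM in *fab1∆*, and *MUP1* and *SAM3* were likewise above *fab1∆* in every *vph1∆* library. Without wild-type replicate 3 the log2 differences between *vph1∆* and *fab1∆* were 0.64 for *MMP1*, 0.46 for *MUP1* and 0.42 for *SAM3* (adjusted p = 0.000241, 0.00377 and 0.00191, limma). *STR3*, higher than wild type in both, was higher in *vph1∆* than in *fab1∆* by 0.40 ± 0.13 (SE), adjusted p = 0.0279 (limma), and *MET17* by 0.38 ± 0.07 (SE), adjusted p = 0.000452. The other members called as higher in *vph1∆* were *SAM2* (0.37), *MHT1* (YLL062C, 0.37), the S-methylmethionine methyltransferase gene beside *MMP1*, *CYS4* (0.34), *MET10* (YFR030W, 0.28), the sulfite reductase alpha subunit gene, *MET12* (YPL023C, 0.22), a methylenetetrahydrofolate reductase gene, and *SAM4* (0.12). *MET8* (YBR213W), of siroheme synthesis, and *MET31* (YPL038W), a zinc finger cofactor gene of Met4, were lower in *vph1∆*, with differences of -0.31 ± 0.08 and -0.13 ± 0.05 (SE). *MET8* had 11, 13.8, 10.3 and 12 TPM in *vph1∆* and 15.6, 15.1, 13.6 and 14.5 TPM in *fab1∆*, with overlap at *vph1∆* replicate 2.

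In *fab1∆* against *atg18∆*, *MET28* was called with every one of 27 alternatives. Its 5.48, 5.42, 4.89 and 4.75 TPM in *fab1∆* stood above 1.96, 2.45, 3.18 and 2.71 TPM in *atg18∆*, without overlap, and the difference was 0.79 ± 0.12 (SE), adjusted p = 0.000239 (limma). With 16 libraries 1 member was higher (10.3% of genes) and 0 lower (0.593%), without wild-type replicate 3, 7 were higher (30.8%) and 8 lower (17.0%), after median scaling of the 16 libraries 3 were higher (17.3%) and 9 lower (22.9%), and with both 5 were higher (25.3%) and 10 lower (30.8%). Without replicate 3 the higher members, beside *MET28*, were *STR3* (0.39), *MET16* (0.37), *MET17* (0.24), *MET14* (0.23), *MET3* (0.17) and *MET30* (YIL046W, 0.16), of which *MET17*, *MET3* and *MET30* were not called after median scaling. *MET16* had 11.5, 11.5, 10.3 and 9.26 TPM in *fab1∆* and 7.73, 8.5, 7.59 and 7.98 TPM in *atg18∆*, with every *fab1∆* library higher. The lower members were *MUP1* (-0.64), *SAM3* (-0.55), *MMP1* (-0.44), *SAM2* (-0.37), *GSH1* (-0.34), *CYS4* (-0.25), *MET12* (-0.21) and *SAM4* (-0.13). *MUP1* had 69.6, 72.6, 71.4 and 73.5 TPM in *fab1∆* and 104, 96.8, 127 and 125 TPM in *atg18∆*, the lowest *atg18∆* library well above the highest of *fab1∆*.

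In *vph1∆* against *atg18∆*, *STR3* and *MET28* were higher with 16 libraries. *STR3* had 2.42, 3.03, 3.35 and 3.98 TPM in *vph1∆* and 1.05, 0.989, 1.80 and 1.90 TPM in *atg18∆*, where replicates 3 and 4 were above replicates 1 and 2, and the strains did not overlap. The difference was 0.79 ± 0.14 (SE), adjusted p = 0.00962 (limma), and it lost the call without *atg18∆* replicate 2. *MET28* had 4.29, 3.95, 5.27 and 4.54 TPM in *vph1∆* and 1.96, 2.45, 3.18 and 2.71 TPM in *atg18∆*, with a difference of 0.63 ± 0.12 (SE), adjusted p = 0.0128 (limma) that lost the call without any 1 of *atg18∆* replicates 1 and 2 and *vph1∆* replicates 3 and 4. The 2 members called as higher compare with 0.531% of genes, and 0 were lower, against 0.141%. Without wild-type replicate 3, 6 were higher (8.88% of genes) and 1 lower (3.18%): *MET17* (0.61), *MET16* (0.39), *MHT1* (0.36) and *GSH1* (0.23) joined them, and *MET31* was lower (-0.17). *MET17* in *vph1∆* was above every *atg18∆* library, with 103, 115, 118 and 117 TPM against 76.8, 68.1, 77.3 and 72.6 TPM.

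**Figure D5:**
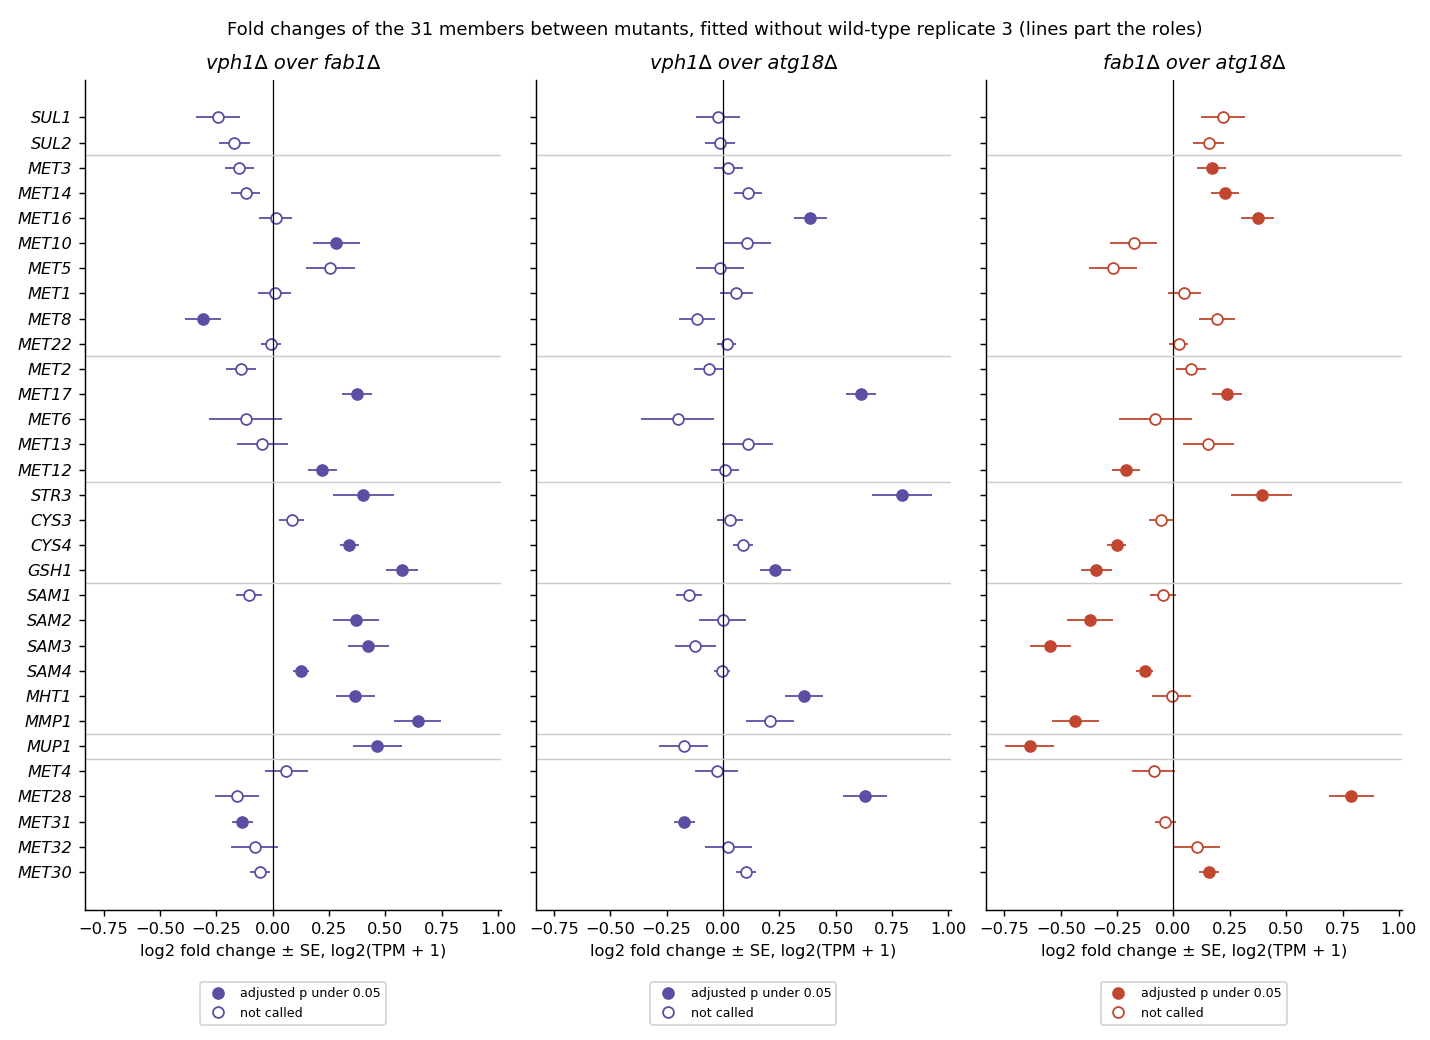
Log2 difference on the TPM + 1 scale with its standard error for the 31 members between pairs of mutants, *vph1∆* minus *fab1∆*, *vph1∆* minus *atg18∆* and *fab1∆* minus *atg18∆*, fitted without wild-type replicate 3, with filled points for members called. In *vph1∆* minus *fab1∆*, 12 members were called as higher (15.3% of all genes) and 2 as lower (25.8%). In *vph1∆* minus *atg18∆* these were 6 (8.88%) and 1 (3.18%), and in *fab1∆* minus *atg18∆* 7 (30.8%) and 8 (17.0%). *GSH1*, *MMP1*, *MUP1* and *SAM3* lie to the right in *vph1∆* minus *fab1∆* and the last 3 of these to the left in *fab1∆* minus *atg18∆*.

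Among the 5 regulators, *MET28* was the only one called against wild type with all 16 libraries or without wild-type replicate 3. *MET4* (YNL103W), the activator gene, had 12.4, 13.1, 13.3 and 14.0 TPM in *fab1∆*, 11.4, 14.5, 15.9 and 13.7 TPM in *vph1∆*, 12.3, 13.5, 15.5 and 15.4 TPM in *atg18∆* and 13.2, 13.0, 7.06 and 15.6 TPM in wild type, and was not called in any of the 6 comparisons with all 16 libraries or without wild-type replicate 3. Median scaling changed which regulator was called in *fab1∆* against wild type: *MET4* was lower, with log2 differences of -0.18 ± 0.06 (SE), adjusted p = 0.0307 with 16 libraries and -0.18 ± 0.06 (SE), adjusted p = 0.0316 without replicate 3 (unscaled 0.15 and -0.07), whereas *MET28* was called only without replicate 3 (limma). *MET30* was also higher in *fab1∆* without replicate 3 when the replicate block was used. *MET32* (YDR253C) was also not called, with 8.71 to 13.5 TPM over the 15 libraries without wild-type replicate 3. *MET30* ranged from 13.2 to 15.4 TPM over the same 15 libraries, and *MET31* from 27.7 to 34.5 TPM. Summed by role, the genes of S-adenosylmethionine synthesis, use and uptake gave 1179 ± 60.6 TPM in *atg18∆*, 1027 ± 26.2 TPM in *fab1∆* and 1130 ± 119 TPM in *vph1∆* (SD, n = 4 each), against 1103 ± 89.5 TPM in wild type without replicate 3 (SD, n = 3). The sums of transsulfuration and glutathione were 639 ± 13.8, 580 ± 28.1 and 669 ± 20.8 TPM in *atg18∆*, *fab1∆* and *vph1∆* (SD, n = 4 each), and 617 ± 11.6 TPM in wild type without replicate 3. The 2 sulfate permeases summed to 5.85 ± 0.344, 6.93 ± 0.193 and 5.77 ± 0.619 TPM in *atg18∆*, *fab1∆* and *vph1∆* (SD, n = 4 each), and 5.49 ± 0.142 TPM in wild type without replicate 3. The sums of S-adenosylmethionine and of transsulfuration and glutathione are dominated by their most abundant genes, whereas *SUL1* and *SUL2* were at similar levels. The sums were not tested.

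Within strains, replicates 3 and 4 often differed from replicates 1 and 2. In *atg18∆* the mean of replicates 3 and 4 was above that of replicates 1 and 2 for 26 of 31 members, with a median ratio of 1.11 and the highest at *STR3* (1.82). In *vph1∆* it was above for 23 members, with a median of 1.09 and the highest at *MET6* (1.52), and in *fab1∆* for 13 members, with a median of 0.987. *MET6*, the methionine synthase gene, had 72.5, 96.7, 137 and 121 TPM in *vph1∆*, 113, 108, 112 and 119 TPM in *fab1∆* and 111, 104, 137 and 129 TPM in *atg18∆*, against 103, 98.5, 44.0 and 141 TPM in wild type, and was not called in any comparison with 16 libraries. The pattern bears on *STR3* between mutants: *fab1∆* was above *atg18∆* by 0.72 on the log2 scale in replicates 1 and 2 and by 0.067 in replicates 3 and 4, and *vph1∆* was above *fab1∆* by 0.16 and 0.64 in the same pairs of replicates. For *MET28*, *fab1∆* was above *atg18∆* in both, by 1.01 and 0.56. Whether these pairs of replicates are the 2 culture days is not given by the labels, and their part in the results was not tested.

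A list of 27 further genes of sulfur metabolism and its neighbours was examined in the same fits, and all 27 were tested. In *fab1∆* against wild type 11 were higher (22.9% of all genes) and 0 lower (0.609%) with 16 libraries, and 13 higher (32.4%) and 5 lower (10.0%) without wild-type replicate 3. In *vph1∆* 3 were higher (4.42%) and 0 lower (0.453%), or 11 (11.6%) and 1 (3.12%) without replicate 3, and in *atg18∆* 0 were called in either. *OPT1* (YJL212C), a transporter of glutathione and oligopeptides, had 11.5, 16.3, 15.6 and 14.6 TPM in *vph1∆* and 8.65, 8.49, 2.84 and 9.12 TPM in wild type, and was higher in *vph1∆* by 1.00 ± 0.24 (SE), adjusted p = 0.0237 (limma), or 0.66 without replicate 3. In *fab1∆* it had 6.27, 6.61, 5.54 and 5.92 TPM and was lower than wild type without replicate 3 (log2 difference -0.46 ± 0.10, SE), and *vph1∆* was above *fab1∆* by 1.12 ± 0.24 (SE), adjusted p = 0.00614 (limma). *MXR2* (YCL033C), a methionine sulfoxide reductase, had 61.3, 58.5, 55.0 and 54.0 TPM in *fab1∆* and 34.2, 32.9, 24.9 and 30.7 TPM in wild type, and was higher in *fab1∆* by 0.89 ± 0.12 (SE), adjusted p = 7.63e-05 (limma). It was also higher in *vph1∆*, by 0.47 ± 0.12 (SE), adjusted p = 0.0371 (limma). *CBF1* (YJR060W), the E-box binding partner of Met4, was lower without wild-type replicate 3, with log2 differences of -0.34 ± 0.05 in *fab1∆* and -0.31 ± 0.05 in *vph1∆* (SE). With 16 libraries it was not called, at -0.0007 ± 0.22 and 0.03 ± 0.22 (SE). The thioredoxin genes *TRX1* (YLR043C) and *TRX2* (YGR209C), whose products reduce Met16, differed by 0.46 and 0.50 in *fab1∆* without replicate 3. In *vph1∆* they differed by 0.12 and 0.39 in the same fit. *TRX2* had 929, 903, 847 and 859.7 TPM in *fab1∆* against 636, 644, 823 and 599 TPM in wild type, where replicate 3 was the highest.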

How the data were processed

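The authors quantified transcripts with Salmon against the Ensembl SacCer3 transcriptome, without adaptor trimming, and TPM values were used as the authors deposited them. The methods and the submitters' processing notes give different Salmon versions (0.8.1 in the notes), and the labels name polyA RNA where the protocol describes no polyA selection. TPM keeps no read numbers, so precision was taken from the spread between libraries, which the labels call biological replicates.

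A filter kept genes that averaged 1 TPM or more (6404 with all 16 libraries), and log2(TPM + 1) was fitted with limma 3.58.1 in R 4.3.3, with a mean per strain and empirical Bayes with a variance trend. P-values were adjusted by Benjamini-Hochberg over every gene that passed the filter and called below 0.05. This replaces the sleuth test of the study, which needs read counts. The members and lists were chosen with earlier results of these data known. Levels are given for the members, and fold changes for those called with 16 libraries or without wild-type replicate 3, or for the 3 with the smallest p where fewer than 3 were called. Alternatives changed the pseudocount (0.1 or 5), the filter (none or 10 TPM), the scaling (library medians or quantiles) or the fit (pairwise, no variance trend, a replicate block, a term for replicates 1 and 2 against 3 and 4), or left out each library. Deviations from the strain means in same-numbered *fab1∆* and wild-type libraries correlated at 0.130 to 0.246 in all 4 pairs, each above the limit of 0.1 set for pairing, so the blocked count is given beside that comparison. The labels do not tie the numbers to a culture or day. Promoters were read from the R64 genome, and the fits were checked on simulated data.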

Additional observations from a re-analysis of the deposited data

Results flagged for a closer look

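In each strain and for each member the highest or lowest of the 4 libraries was compared with the others by Dixon's ratio, at its usual critical value. Of 124 such groups 11 passed it, and chance gives about 1 in 20. In 10 of the 11 wild-type replicate 3 was the low library, with 1.31 TPM of *SUL2*, 2.80 TPM of *MET3*, 2.04 TPM of *MET1*, 4.22 TPM of *MET8*, 21.0 TPM of *MET22*, 2.64 TPM of *MET2*, 95.8 TPM of *CYS3*, 3.10 TPM of *MMP1*, 24.7 TPM of *MET31* and 4.78 TPM of *MET30*. The other was *MET30* in *atg18∆* replicate 4, which was high at 13.9 TPM against 13.2 to 13.3 TPM in the other *atg18∆* libraries. Wild-type replicate 3 was the lowest of the 4 wild-type libraries for 31 of 31 members, so these values are not independent of each other, and the cause was not tested.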

How the results depend on the processing

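Over 54 pairs of a named member and a comparison, 1489 values under alternatives kept direction and side of the threshold in 1250, lost the call in 20, gained it in 212 and changed sign in 7. Those that changed sign in *fab1∆* against wild type were *MET14*, at -0.066 with median scaling and -0.044 with quantile normalization, *MET16*, at -0.0062 and -0.014, and *GSH1*, at -0.37 to 0.11 with each library left out, and the cause was not tested.

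Counts of members called, with higher/lower and the percent of all genes called higher/lower in brackets, are given in the order *fab1∆*, *vph1∆* (both against wild type), *vph1∆* against *fab1∆*, *vph1∆* against *atg18∆* and *fab1∆* against *atg18∆*. With 16 libraries they were 4, 1, 0, 2 and 1, and those that moved by more than 1.5 times follow. Median scaling gave 11 (1/10, 14.9/23.3%), 3 (3/0, 4.22/3.87%), 12 (11/1, 18.4/13.5%), 4 (4/0, 3.19/1.72%) and 12 (3/9, 17.3/22.9%), and 15 (3/12, 21.3/29.9%), 4 (3/1, 5.57/7.43%), 15 (13/2, 26.6/22.4%), 7 (6/1, 6.69/5.96%) and 15 (5/10, 25.3/30.8%) when wild-type replicate 3 was also left out. Quantile normalization gave 10 (1/9, 16.2/22.8%), 3 (3/0, 5.29/3.34%) and 13 (13/0, 21.5/13.4%) for the first 3 and 11 (1/10, 17.1/26.9%) for the last. Fits of each pair alone gave 2 (2/0, 8.37/0.233%) in the first and 13 (12/1, 17.9/25.5%), 4 (4/0, 4.83/1.61%) and 18 (9/9, 31.2/18.8%) in the last 3. A mean TPM of at least 10 left 0 in all of them, since *STR3*, *MET28*, *MET3* and *SUL2* were not tested. A pseudocount of 5 gave 2 in *vph1∆* (2/0, 4.83/0.453%) and 2 in *fab1∆* against *atg18∆* (2/0, 12/0.703%), and *fab1∆* against *atg18∆* also gave 2 without a variance trend and 2 with a term for replicates 1 and 2 against 3 and 4. Leaving out each library gave 3 to 11, 1 to 4, 0 to 14, 0 to 7 and 1 to 15, the highest always without wild-type replicate 3 (32.4/10.0%, 11.6/3.12%, 15.3/25.8%, 8.88/3.18% and 30.8/17.0%). Members without overlap with wild type then numbered 3 to 9 in *atg18∆*, 10 to 19 in *fab1∆* and 8 to 13 in *vph1∆*. Median scaling gave 4 in *atg18∆* (2/2, 1.26/2.86%), 10 in *fab1∆* (2/8, 14.4/20.8%, against 10/0 unscaled) and 4 in *vph1∆* (4/0, 5.51/7.40%). Where no percent of all genes is given in this paragraph, the count shows only how far the number moved and is no result about the members. The 27 further sulfur genes gave 18 (13/5), 12 (11/1), 12 (7/5), 13 (11/2) and 15 (11/4) calls without wild-type replicate 3. Windows of 150 bases held an E-box in 2, a Met31/32 core in 3 and a Gcn4 core in 3 members, and windows of 500 bases 20, 22 and 11.

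Outside *fab1∆* against wild type the replicate numbers were not treated as pairs, since each of those comparisons had a pair of same-numbered libraries correlated at 0.1 or less. In all, 16 of 24 correlations between same-numbered libraries exceeded 0.1 (-0.125 to 0.444) and the own number gave the highest correlation in 11 of 24 pairs. With a replicate block and 16 libraries the same members were called in every comparison, and without wild-type replicate 3 the block gave 19 (9/10, 34.8/19.9%), 6 (6/0, 13.7/4.09%), 17 (13/4, 24.3/28.9%), 7 (6/1, 11.3/5.04%) and 19 (10/9, 33.6/24.7%). The windows of 500 bases and the values within replicates 1 and 2 and within 3 and 4 were chosen after the data were seen. The depth of the libraries is unknown, so the counting error of low genes such as *STR3* could not be given.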
